A study of Mus musculus with 12 samples.

Results

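Keratinocytes sorted from the skin of bitransgenic mice were compared between the basal and the suprabasal layer of the epidermis. The members were chosen by sample title: 3 basal arrays and 3 suprabasal arrays, 6 of the 12 arrays in the series, and the other 6 were the same layers of wild-type mice. All mice were of the FVB/N strain, an albino strain, and were sampled on postnatal day 4. The genotype label of the 6 arrays reads BT. The title of the series names progerin, the truncated lamin A of Hutchinson-Gilford progeria, but the sources used here do not give which transgenes the mice carry, which promoter drives them, how the layers were gated in the sort, how many mice a sample holds, or whether a code is an animal. Each title carries a code: X721_05 and X667_05 occur in both layers, X722_07 only in the basal layer and X682_05 only in the suprabasal layer. Arrays are named by code and layer, with H for basal and L for suprabasal as in the titles, so that X721_05_L is the suprabasal array of code X721_05.

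The epidermis renews itself from its basal layer, where cells hold on to the basement membrane through integrins and laminins, express keratins 5 and 14, and divide. Cells that leave this layer stop dividing, switch to keratins 1 and 10, and later assemble the cornified envelope and the lipids of the barrier. Melanocytes are neural crest cells that make pigment. In newborn mice they lie among the keratinocytes of the epidermis and enter the growing hair follicles.

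RNA was read on Affymetrix MTA-1_0 arrays as log2 signals, 1 value per transcript cluster, a set of probes for 1 transcribed locus. A basal minus suprabasal difference below 0 therefore means more signal in the suprabasal layer, and 1 unit is a doubling. Each array's background mark was the 95th percentile of its intronic control sets, between 8.04 and 8.81, and a cluster was taken as above background in a layer where it passed the mark on all 3 arrays. The keratinocyte label held on every array: Krt14 lay between 12.71 and 13.47, Krt5 between 12.20 and 13.49, Krt1 between 12.40 and 13.06 and Krt10 between 12.81 and 13.36. Krt5 and Krt14 were higher on all basal than on all suprabasal arrays, whereas Krt1 and Krt10, the keratins of the suprabasal layers, overlapped between the layers. Xist, the transcript of the inactive X chromosome, was at 4.23 and 4.20 on the arrays X721_05_H and X721_05_L and between 10.69 and 11.08 on the other 4, so each layer held 1 array with low Xist. Suprabasal X721_05_L had the highest background mark of the 12 arrays (8.81) and the smallest share of clusters above it (7.14%, against 9.58% to 12.3% on the other 5 bitransgenic arrays).

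No single cluster passed the test between the layers. With limma fitted to all 12 arrays and p-values adjusted over 65956 clusters, 0 were called at adjusted p under 0.05, which is 0.0% of those tested. The smallest adjusted p was 0.605. An unadjusted p under 0.05 was found for 4916 clusters, 2856 of them with more basal signal, and the unpaired test that the series design names called 0 as well, with 3954 under an unadjusted 0.05. The authors' deposited table likewise had 0 clusters with q under 0.05 in this comparison, and its smallest q was 0.679. Because nothing was called, the values below describe these 6 arrays. A gene is said not to overlap where all 3 arrays of a layer lie above all 3 of the other. Over all clusters the basal arrays lay wholly above the suprabasal ones in 8.08% and wholly below in 4.27%, and counts in gene lists are to be read against these shares. Both include genes above background in neither layer, 59728 of the 65956 clusters. In the lists these were 17 of 33 mitosis, 17 of 29 replication, 14 of 25 cornified envelope, 25 of 35 Wnt and 10 of 14 Notch genes. Nothing in the labels says that the arrays of a group came from separate animals. The limma SEs and p-values cover only the spread among arrays, pooled over all 12 with wild type included, which may be technical. In bulk samples, fewer cells of a type and less RNA per cell cannot be told apart.

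The suprabasal arrays differed more from each other than the basal arrays did. Over the 6228 clusters above background in a layer, the median SD between arrays was 0.177 in the suprabasal and 0.103 in the basal group. Suprabasal X721_05_L lay at least 2-fold from the mean of the basal arrays in 340 clusters (212 lower and 128 higher, 5.46%), suprabasal X682_05_L in 68 (13 lower and 55 higher, 1.09%), and suprabasal X667_05_L in 41 (3 lower and 38 higher, 0.658%). Each basal array, set against the mean of the other 2, was this far off in 10 to 27 clusters. The pairs of arrays with 1 code were just as uneven. The layers of X721_05 differed at least 2-fold in 357 clusters, and those of X667_05 in 2, Dct and Cyp2g1, which are named here because the count is so small. Across these clusters, which are not independent replicates, the layer differences of the codes correlated at 0.555 (Pearson, 6228 clusters), with an SD of 0.526 in code X721_05 and 0.151 in X667_05. The layer difference in X667_05 thus had the smaller spread, and 59.6% of clusters had the same sign in both codes. Whether the sort separated the layers of X667_05 as fully as those of X721_05 was not tested.

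**Figure D1:**
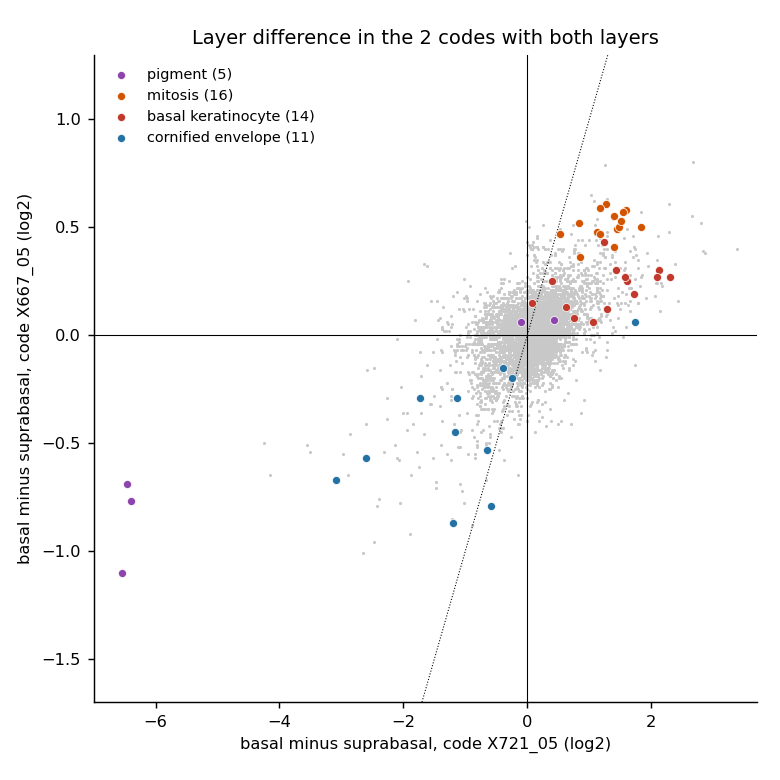
Basal minus suprabasal log2 difference of each of 6228 clusters above background, in code X721_05 (horizontal axis) and in code X667_05 (vertical axis, drawn at a wider scale). Coloured points are members of 4 gene lists with the number drawn, and the dotted line marks equal differences. Pigment genes reach below -6 in X721_05 and stay near -1 or above in X667_05.

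Genes of pigment synthesis had the largest layer differences, and they separated the suprabasal arrays from each other. Of 12 genes in the pigment list, 8 were lower on all basal than on all suprabasal arrays and 0 were higher, with a median difference of -3.07 against 0.02 over all clusters. The list's mean log2 level was 6.31 to 6.98 on the basal arrays, 7.36 on suprabasal X667_05_L, 9.57 on suprabasal X682_05_L and 10.17 on suprabasal X721_05_L. In a layer, 5 of the 12 were above background on all 3 arrays, and 4 more (Tyr, Mlana, Slc45a2 and Slc24a5) passed the mark on suprabasal X721_05_L and X682_05_L but not on suprabasal X667_05_L. The promoters of 3 members, from 250 bases before to 50 after the transcript start (RefSeq, build GRCm38.p6), are shown. They are the members named by rule with the largest differences that had a promoter in the RefSeq table. Pmel had none there, so Mreg came next, and it was not picked for its small difference. Where the table holds more than 1 promoter of a gene, the one listed first is printed. Capitals mark CATGTG or its reverse complement CACATG, the core of the E-box that the melanocyte factor MITF is known to bind.

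Tyrp1, chr4:80833963-80834262, plus strand: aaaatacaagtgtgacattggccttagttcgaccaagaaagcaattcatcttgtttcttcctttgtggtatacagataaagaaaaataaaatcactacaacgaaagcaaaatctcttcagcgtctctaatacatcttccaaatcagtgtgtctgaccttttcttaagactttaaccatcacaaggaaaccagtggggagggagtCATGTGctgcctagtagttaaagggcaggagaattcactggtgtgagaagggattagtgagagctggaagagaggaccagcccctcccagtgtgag

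Dct, chr14:118052197-118052496, minus strand: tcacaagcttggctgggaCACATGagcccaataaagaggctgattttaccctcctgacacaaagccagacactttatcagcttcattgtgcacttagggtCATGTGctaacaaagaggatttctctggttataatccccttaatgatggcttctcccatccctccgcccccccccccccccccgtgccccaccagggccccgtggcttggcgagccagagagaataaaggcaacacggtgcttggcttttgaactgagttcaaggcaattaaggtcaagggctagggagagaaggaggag

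Mreg, chr1:72212265-72212564, minus strand: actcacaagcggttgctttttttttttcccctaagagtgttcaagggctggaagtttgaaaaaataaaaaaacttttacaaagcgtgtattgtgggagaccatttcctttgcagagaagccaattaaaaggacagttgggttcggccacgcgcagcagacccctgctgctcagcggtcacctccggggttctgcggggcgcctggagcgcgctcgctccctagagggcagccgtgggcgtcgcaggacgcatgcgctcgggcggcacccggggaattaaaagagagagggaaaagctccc

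These letters occurred 1 time in the Tyrp1 window, 2 times in the Dct window and 0 times in the Mreg window. Of the 12 list genes 7 matched a promoter in the RefSeq table, and 5 of these 7 (71.4%) held the motif on either strand, against 3818 of 27025 genes (14.1%) with a promoter of the same length. A match is a description of the sequence and does not show binding.

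Tyrp1 (chromosome 4, 80834123 to 80851736, plus strand, mm10), a melanosomal enzyme of melanin synthesis, was at 5.84, 7.62 and 5.90 on X721_05_H, X667_05_H and X722_07_H, and at 12.30, 8.31 and 12.05 on X721_05_L, X667_05_L and X682_05_L. The layers did not overlap, but suprabasal X667_05_L lay closer to the basal arrays than to the other suprabasal ones. The difference was -4.43 ± 1.01 (SE; limma adjusted p = 0.605). As no basal array passed its background mark, the mean suprabasal level is at least 6.09-fold higher, with each basal array set at its background mark. This bound, like those given below, compares layer means and does not hold for each suprabasal array. On suprabasal X667_05_L Tyrp1 was at 8.31, against 7.62 on basal X667_05_H.

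Dct (chromosome 14, 118012790 to 118052246, minus strand), dopachrome tautomerase, the enzyme after tyrosinase in melanin synthesis, followed the same order. It was at 6.44, 8.04 and 7.02 on the basal arrays and at 12.98, 9.14 and 12.29 on the suprabasal arrays, in the order of codes given for Tyrp1, which is kept from here on. Suprabasal X667_05_L passed its mark but stood more than 3 log2 units under the other suprabasal arrays. The difference was -4.30 ± 0.828 (SE; limma adjusted p = 0.605), at least 9.13-fold. The authors' deposited table gives a signed fold of -28.5 for Dct, a ratio of mean unlogged signals, which the brightest arrays weigh on most.

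Pmel, which forms the fibrils of the melanosome, was at 6.54, 8.32 and 7.33 on the basal and 12.94, 9.09 and 12.36 on the suprabasal arrays, a difference of -4.07 ± 0.855 (SE; limma adjusted p = 0.605) with 1 of 3 basal arrays above the mark. Basal X667_05_H was the highest basal array for Tyrp1, Dct and Pmel, and suprabasal X667_05_L the lowest suprabasal array for all 3. Tyr, the enzyme tyrosinase itself, was at 4.90, 5.76 and 5.06 on the basal and 10.95, 6.39 and 10.30 on the suprabasal arrays, at least 1.91-fold higher with 2 of 3 suprabasal arrays above the mark. Mlana, a melanosomal membrane protein, was at 6.31, 7.12 and 6.67 against 12.09, 7.99 and 11.34, at least 4.58-fold. The carriers Slc45a2 and Slc24a5, which set the ion and acid balance of the melanosome, differed by -3.06 and -3.07. Mreg, Rab38 and Rab27a, which move melanosomes and related organelles and are not limited to pigment cells, did not follow: Mreg differed by 0.20 (limma adjusted p = 0.866), Rab38 by -0.06 and Rab27a by -0.29, and all 3 overlapped.

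Regulators of the melanocyte lineage stood in the same order of arrays. All 7 of the list were lower on all basal arrays, with a median of -2.09. In all 7 suprabasal X721_05_L was the highest and X667_05_L the lowest suprabasal array. Over all clusters these held in 26971 and 19786 of 65956. Kit, the receptor for stem cell factor, was at 5.98, 6.25 and 6.12 on the basal and 11.15, 6.40 and 9.90 on the suprabasal arrays. Suprabasal X667_05_L was thus 0.15 above the highest basal array, and the other suprabasal arrays over 3 units above it. The difference was -3.03 ± 0.942 (SE; limma adjusted p = 0.605), at least 1.83-fold, with 2 of 3 suprabasal arrays past the mark. Mitf, the transcription factor that drives pigment genes, was at 6.40, 6.43 and 6.52 against 9.61, 6.87 and 8.81, a difference of -1.98. Ednrb, the endothelin receptor of melanoblasts, differed by -3.05, Pax3 by -2.69, the melanocortin receptor Mc1r by -2.09 and Sox10 by -0.86. Erbb3, a receptor that keratinocytes also express, was the 1 member above background in both layers, and it differed by -0.37.

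Vim, the intermediate filament of mesenchymal and neural crest cells, is on the fibroblast list and moved with the melanocyte genes. It was at 7.18, 7.40 and 7.17 on the basal and 11.33, 8.05 and 10.41 on the suprabasal arrays, a difference of -2.68 ± 0.677 (SE; limma adjusted p = 0.605), at least 3.14-fold. The other 8 measured genes of the fibroblast list were not above background in a layer: Col1a1 was between 7.17 and 7.51 on the 6 arrays, Col1a2 between 6.58 and 6.92, and Col3a1 between 6.48 and 6.77. None of the measured genes of the Merkel cell (7), immune and Langerhans cell (11), endothelial (7), Schwann cell (6), erythroid (3), muscle (8), adipocyte (6) and hair shaft (13) lists was above background in a bitransgenic layer. Their median differences lay between -0.08 and 0.03. Single members lay farther out, down to -1.31 in the Schwann cell list and -0.70 in the hair shaft list. The highest was 0.41, in the immune and Langerhans cell list. Whether melanocytes in the sorted suprabasal samples account for these values was not tested.

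Ptgds, prostaglandin D2 synthase, and Sulf2, a sulfatase that trims heparan sulfate, were among the 12 genes with the largest excess in the suprabasal layer and had the same array order. Ptgds was at 7.79, 7.93 and 7.83 against 12.04, 8.43 and 11.09 (at least 4.73-fold), and Sulf2 at 7.37, 8.03 and 7.35 against 9.97, 8.44 and 9.39 (at least 1.98-fold). Both were higher on suprabasal X721_05_L and X682_05_L than on suprabasal X667_05_L. Alcam and Cd200, surface proteins among the 5 smallest p-values in this direction, differed by -1.12 and -1.42 (limma adjusted p = 0.605 for both).

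**Figure D2:**
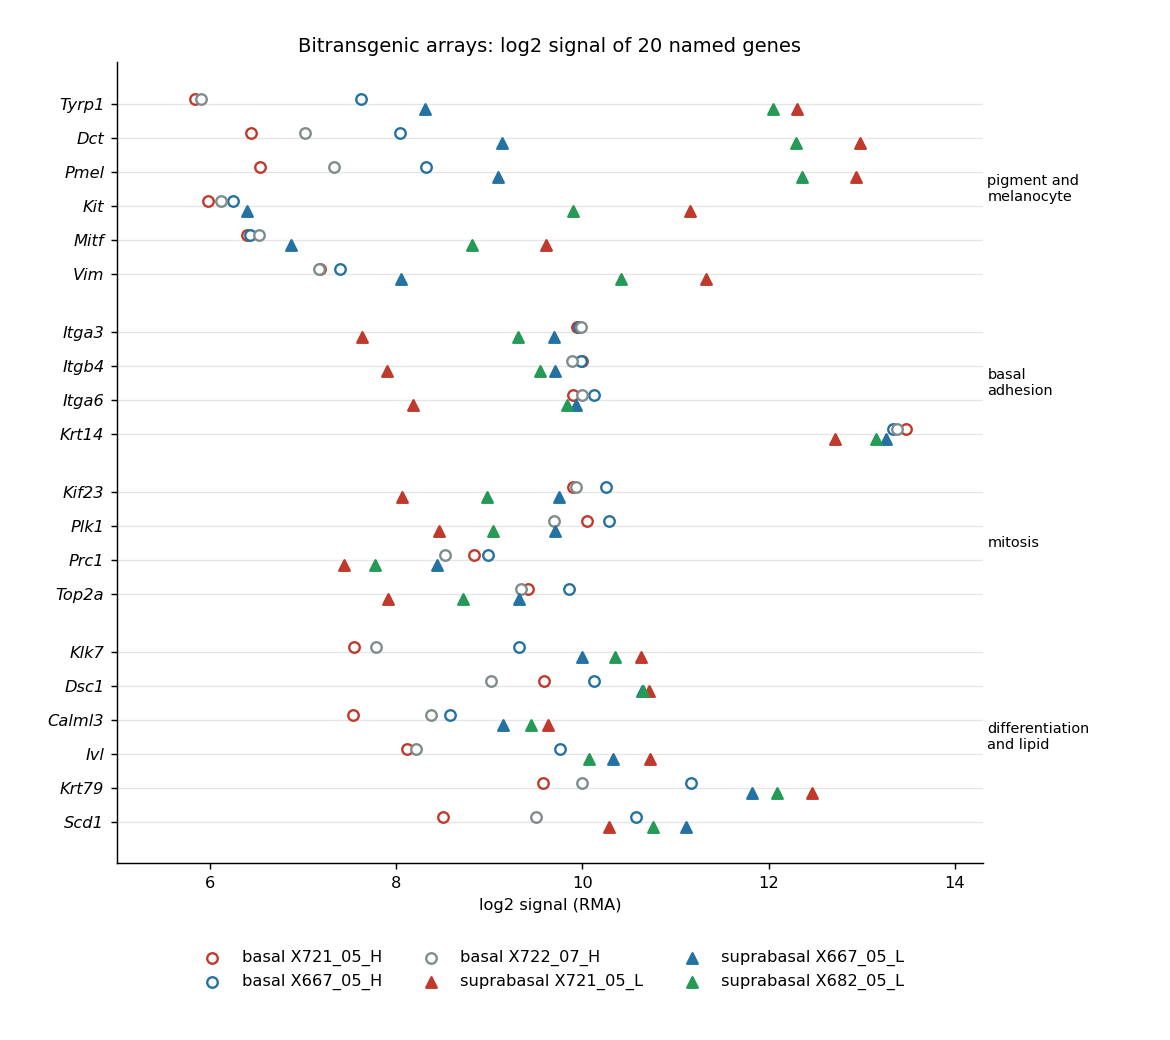
Log2 signal (horizontal axis) of 20 genes on the 6 bitransgenic arrays. Open circles are basal and filled triangles suprabasal arrays, and colours mark the code. In the pigment and melanocyte block suprabasal X667_05_L sits near the basal arrays; in the adhesion and mitosis blocks suprabasal X721_05_L is the lowest; in the differentiation block all suprabasal arrays lie above the basal arrays except for Scd1.

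Genes that anchor basal cells to the basement membrane were higher in the basal layer, mostly through suprabasal X721_05_L. Of 16 measured genes of the basal keratinocyte list, 11 were higher on all basal arrays and 0 lower, with a median of 0.71. The median was 1.36 between the layers of X721_05, 0.25 between those of X667_05, and suprabasal X682_05_L differed from the basal mean by a median of -0.32. Leaving out suprabasal X721_05_L brought the list's median from 0.71 to 0.28. In 15 of the 16 genes suprabasal X721_05_L was the lowest suprabasal array, against 24622 of 65956 over all clusters.

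Itga3, the integrin chain that pairs with beta 1 to bind the laminin of the epidermal basement membrane, was at 9.94, 9.96 and 9.98 on the basal arrays and at 7.63, 9.69 and 9.31 on the suprabasal arrays. The basal arrays agree within 0.04, and only suprabasal X721_05_L was far from them. The difference was 1.08 ± 0.439 (SE; limma adjusted p = 0.629). Itgb4, the hemidesmosome integrin, was at 9.99, 9.98 and 9.89 against 7.90, 9.71 and 9.54, a difference of 0.90 ± 0.39. Its partner Itga6 was at 9.90, 10.12 and 10.00 against 8.18, 9.93 and 9.83 and overlapped between the layers. Lama3 and Lamb3, chains of that laminin, differed by 0.74 and 0.73. Itga3, Itgb4 and Itga6 lay under the background mark on suprabasal X721_05_L and on no other bitransgenic array.

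Keratins of the basal layer also had more basal signal. Krt5 was at 13.49, 13.44 and 13.42 against 12.20, 13.32 and 13.19, and Krt14 at 13.47, 13.34 and 13.38 against 12.71, 13.26 and 13.15, differences of 0.55 and 0.36. These basal values lie close to the highest signal on the basal arrays (13.63 to 13.71), so the sizes are not set against those of other genes. Krt15, a keratin of basal cells, was at 12.17, 11.65 and 12.06 on the basal and 10.93, 11.22 and 11.19 on the suprabasal arrays, so that all suprabasal arrays were 0.43 or more below the lowest basal one (difference 0.85 ± 0.422, limma adjusted p = 0.694). Trp63, the transcription factor of the basal state, was at 9.32, 9.55 and 9.60 against 8.26, 9.49 and 9.43 and overlapped. It too was under the mark on suprabasal X721_05_L. Dst, the plakin of hemidesmosomes, went the other way (-0.40), with suprabasal X721_05_L the highest array at 9.10.

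Cell division genes had more basal signal, in a graded order over the suprabasal arrays. All 33 measured genes of the mitosis list had a difference above 0, between 0.43 and 1.10, with a median of 0.80. In 13 the layers did not overlap, all with more basal signal, and in 20 they did. In all 33, suprabasal X667_05_L was the highest suprabasal array, and in 32 suprabasal X721_05_L was the lowest (Aspm was the exception). Over all clusters these held in 25501 and 24622 of 65956. The list's mean log2 level was 8.40 to 8.94 on the basal arrays, 8.41 on suprabasal X667_05_L, 7.84 on suprabasal X682_05_L and 7.40 on suprabasal X721_05_L. Promoters of 3 members with the largest differences are printed, as the list's genes moved together across the arrays. Capitals mark TTTGAA or TTCAAA, the CHR element of genes expressed late in the cell cycle, and CCAAT or ATTGG, the CCAAT box. No printed match of one motif overlaps a match of the other.

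Kif23, chr9:61946750-61947049, minus strand: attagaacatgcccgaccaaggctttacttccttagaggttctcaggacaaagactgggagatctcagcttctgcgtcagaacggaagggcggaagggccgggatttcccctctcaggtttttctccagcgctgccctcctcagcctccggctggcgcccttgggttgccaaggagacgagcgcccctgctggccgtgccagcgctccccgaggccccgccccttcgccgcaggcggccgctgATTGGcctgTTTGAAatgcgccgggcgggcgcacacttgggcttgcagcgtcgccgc

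Plk1, chr7:122159185-122159484, plus strand: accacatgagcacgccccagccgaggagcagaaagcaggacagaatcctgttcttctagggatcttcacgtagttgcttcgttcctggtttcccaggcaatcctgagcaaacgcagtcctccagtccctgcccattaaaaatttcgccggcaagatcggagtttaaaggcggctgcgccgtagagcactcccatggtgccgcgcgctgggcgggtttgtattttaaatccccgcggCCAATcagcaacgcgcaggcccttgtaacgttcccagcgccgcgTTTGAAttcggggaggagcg

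Prc1, chr7:80294201-80294500, plus strand: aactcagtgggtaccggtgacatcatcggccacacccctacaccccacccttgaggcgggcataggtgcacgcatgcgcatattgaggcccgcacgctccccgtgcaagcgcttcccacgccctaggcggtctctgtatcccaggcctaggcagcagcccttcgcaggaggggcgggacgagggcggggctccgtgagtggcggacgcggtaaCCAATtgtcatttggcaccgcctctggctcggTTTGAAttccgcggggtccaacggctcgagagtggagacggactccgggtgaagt

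Each window held both motifs, 1 time each. Of 28 list genes with a promoter in the RefSeq table, 23 (82.1%) held TTTGAA on either strand, against 4893 of 27025 genes (18.1%), and 23 (82.1%) held CCAAT, against 10248 (37.9%).

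Kif23 (chromosome 9, 61917277 to 61946799, minus strand), the kinesin of the central spindle, was at 9.90, 10.25 and 9.93 on the basal and 8.06, 9.75 and 8.97 on the suprabasal arrays. The layers did not overlap, with suprabasal X667_05_L only 0.15 under the lowest basal array. The difference was 1.10 ± 0.429 (SE; limma adjusted p = 0.620), with suprabasal X721_05_L under its background mark. Plk1, the polo kinase that drives entry into and passage through mitosis, was at 10.05, 10.28 and 9.69 against 8.46, 9.70 and 9.04, where suprabasal X667_05_L lay 0.01 above basal X722_07_H. Prc1, which bundles the microtubules of the central spindle, was at 8.84, 8.99 and 8.52 against 7.44, 8.44 and 7.77 (0.90 ± 0.26, limma adjusted p = 0.605). Plk1 and Prc1 were also under the mark on suprabasal X721_05_L, and Prc1 on suprabasal X682_05_L as well. Mki67, the antigen used to mark dividing cells, was between 10.84 and 11.08 on the basal arrays and at 10.15, 10.72 and 10.32 on the suprabasal ones, a difference of 0.58 ± 0.195. Ube2s and Cdc25b, which act in mitotic exit and entry, were among the 5 smallest p-values with more basal signal, at 0.49 and 0.58 (limma adjusted p = 0.605 for both).

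Replication genes were higher in the basal layer by less. All 29 measured genes of the list differed by more than 0, with a median of 0.41, and 13 did not overlap. Tyms, thymidylate synthase, was at 9.49, 9.75 and 9.57 against 8.26, 9.44 and 9.11 (difference 0.67), with suprabasal X721_05_L under its mark. Mcm5, a subunit of the replicative helicase, was at 10.16, 10.14 and 10.05 against 9.04, 9.94 and 9.78. Rrm1 and Rrm2, the subunits of ribonucleotide reductase, differed by 0.59 and 0.57 and overlapped. Suprabasal X721_05_L was the lowest suprabasal array for all 29 (24622 of 65956 over all clusters), and without it the list's median was 0.18.

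**Figure D3:**
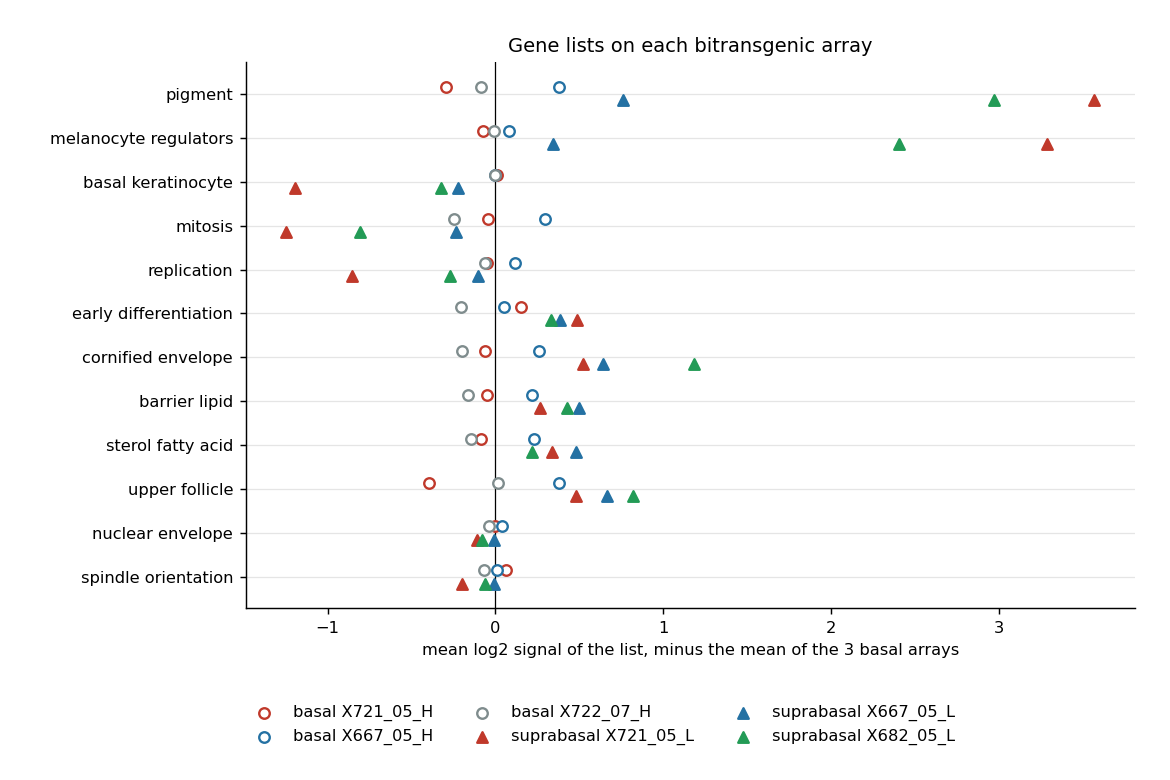
Mean log2 signal of each of 12 gene lists on each bitransgenic array, minus the mean of the 3 basal arrays (horizontal axis). Open circles are basal and filled triangles suprabasal arrays, coloured by code. Pigment and melanocyte genes are high on suprabasal X721_05_L and X682_05_L, basal keratinocyte and replication genes are low mainly on suprabasal X721_05_L, and the cornified envelope list is highest on suprabasal X682_05_L.

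Genes of terminal differentiation were higher in the suprabasal layer, and here all 3 suprabasal arrays took part. Of 25 measured genes of the cornified envelope list, 16 were lower on all basal arrays and 0 higher, with a median of -0.75. The medians within the codes were alike, -0.40 in X721_05 and -0.37 in X667_05. Klk7 (chromosome 7, 43811294 to 43816359, plus strand), a protease that sheds the outermost cells, was at 7.55, 9.32 and 7.78 on the basal and 10.63, 9.99 and 10.35 on the suprabasal arrays. The suprabasal arrays lay within 0.64 of each other, and the spread came from basal X667_05_H. With 1 of 3 basal arrays above the mark, the difference was -2.11 ± 0.462 (SE; limma adjusted p = 0.605) and stayed between -2.66 and -1.77 under all alternatives.

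Ivl, involucrin, a scaffold of the cornified envelope, was at 8.11, 9.76 and 8.21 against 10.72, 10.33 and 10.07, again with basal X667_05_H the nearest basal array to the suprabasal ones. Flg, the filament-aggregating protein of the granular layer, was at 8.66, 9.45 and 8.15 against 10.40, 9.74 and 10.64. Their differences were -1.68 ± 0.649 and -1.51 ± 0.457 (SE; limma adjusted p = 0.618 and 0.605). Sprr1a, an envelope precursor, was at 7.94, 7.54 and 7.96 against 9.14, 8.41 and 8.84, at least 1.43-fold higher. Psapl1, a gene on no list, had suprabasal values close to each other, 10.48, 10.59 and 10.49, against 8.43, 9.81 and 8.41 on the basal arrays. Its difference was -1.64 ± 0.315, and it is named because it was the single call when basal X667_05_H was left out (-2.10, limma adjusted p = 0.0127; over all alternatives 0.0127 to 0.983).

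Late envelope genes stood out on suprabasal X682_05_L. These were chosen after their values were seen. Lce1b, of the late cornified envelope family, was at 7.70, 7.60 and 7.74 on the basal arrays and at 7.69, 8.06 and 10.34 on the suprabasal arrays. Hrnr, hornerin, was at 5.79 to 6.14 on the basal arrays and at 6.16, 6.31 and 8.80 on the suprabasal ones. Flg2, filaggrin 2, was at 7.21, 7.35 and 8.99 on the suprabasal arrays. Each was highest on suprabasal X682_05_L, as were 13 of the 25 genes of the list, and without that array the list's median was -0.48. Over all clusters X682_05_L was the highest suprabasal array in 13484 of 65956. Lce1b and other family members are close copies of each other, and their probes may not tell them apart.

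Of 14 genes of the early differentiation list, 5 were lower on all basal arrays and 0 higher, with a median of -0.33. Calml3, a calmodulin-like protein of differentiating keratinocytes, was at 7.53, 8.58 and 8.37 against 9.63, 9.15 and 9.45, a difference of -1.25 ± 0.326 (SE; limma adjusted p = 0.605). Dsc1, the desmocollin of the upper layers, was at 9.59, 10.12 and 9.02 against 10.71, 10.64 and 10.65, where the suprabasal arrays lay within 0.07. Dmkn, dermokine, differed by -0.73. Krt1 and Krt10 differed by -0.28 and -0.21 (limma adjusted p = 0.862 and 0.867), and both overlapped. Both lay near the highest signal on the bitransgenic arrays (13.63 to 13.81). As for Krt5 and Krt14, the sizes are therefore not set against those of other genes.

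Lipid synthesis and upper follicle genes had more suprabasal signal, and basal X667_05_H was set apart from the other basal arrays in them. Of 21 sterol and fatty acid genes 9 were lower on all basal arrays and 0 higher (median -0.30), and of 18 barrier lipid genes 10 and 0 (median -0.34). Scd1, the desaturase that makes monounsaturated fat and is high in sebaceous glands, was at 8.50, 10.57 and 9.50 against 10.28, 11.11 and 10.76 and overlapped through basal X667_05_H. Soat1, which esterifies cholesterol, was at 6.69, 9.22 and 8.13 against 9.08, 9.98 and 9.54. Elovl4 and Abca12, which make and load the long-chain ceramides of the barrier, differed by -0.69 and -0.65 without overlap.

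Krt79 (chromosome 15, 101929332 to 101940324, minus strand), a keratin made in the upper part of hair follicles, was at 9.58, 11.17 and 9.99 on the basal and 12.47, 11.82 and 12.09 on the suprabasal arrays. The difference was -1.88 ± 0.39 (SE; limma adjusted p = 0.605). Cst6, a protease inhibitor of the same region, was at 7.55, 8.40 and 7.73 against 9.62, 8.98 and 9.47 (-1.46 ± 0.312). Cyp2g1, a cytochrome P450, had the widest spread of these among the basal arrays: 6.46, 9.45 and 6.57 against 9.11, 10.46 and 9.71. Basal X667_05_H was the highest basal array for Krt79, Cst6, Cyp2g1, Scd1 and Soat1. Of the 10 upper follicle genes 6 were lower on all basal arrays and 1, Plet1, was higher (0.34); of 12 lower follicle genes 3 were lower and 0 higher, with a median of -0.09. Their probes cannot show whether follicle cells were sorted into a fraction, and this was not tested.

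Genes on no list were among the largest differences with more basal signal. Ptgs2, the inducible prostaglandin synthase, was at 9.52, 9.60 and 9.75 on the basal and 6.72, 9.08 and 8.09 on the suprabasal arrays, a difference of 1.66 ± 0.524 (SE; limma adjusted p = 0.605). Serpinb10, a serine protease inhibitor, was at 9.19, 9.05 and 8.92 on the basal arrays and between 5.80 and 8.65 on the suprabasal ones (1.57 ± 0.623). In both, suprabasal X667_05_L was the nearest to the basal arrays and suprabasal X721_05_L the farthest. The matrix proteins Tgfbi and Smoc2 differed by 1.18 and 1.06, the anthrax toxin receptor Antxr1 by 1.24, the growth factor binding protein Igfbp2 by 1.03 and the carbonyl reductase Cbr2 by 0.99, all without overlap.

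The series title names Wnt signalling, and genes of the Wnt list differed in both directions. Of 35 measured genes of the Wnt list 10 were higher and 5 lower on all basal arrays, with a median of -0.06. Wnt3 was at 9.34, 9.08 and 8.83 on the basal and 6.69, 8.53 and 7.98 on the suprabasal arrays, a difference of 1.35 ± 0.457 (SE; limma adjusted p = 0.605). Wnt4 was at 9.44, 9.29 and 9.10 against 8.32, 9.07 and 8.65 (0.60 ± 0.242), and Wls, which carries Wnt proteins to the surface, differed by 0.36. Wnt10a, a ligand of follicles and sweat glands, was under the mark on all arrays at 7.93, 7.84 and 7.80 against 7.17, 7.74 and 7.38. Axin2, a feedback target of the pathway, differed by -0.22 (limma adjusted p = 0.762) and Lef1, a nuclear partner of beta-catenin, by -0.09, and both overlapped. The receptor Fzd10 differed by 0.35 and overlapped. The sign of the list's median was not stable, and it was 0.25 over members above background.

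Genes of the Notch list lay on both sides. Of 14 genes 5 were higher and 2 lower on all basal arrays (median 0.10). Jag2, a ligand, was at 10.02, 9.89 and 9.85 against 7.91, 9.43 and 9.30, a difference of 1.04 ± 0.363 (SE; limma adjusted p = 0.605). Notch1, a receptor that acts as cells leave the basal layer, was at 10.24, 9.94 and 10.04 against 9.36, 9.76 and 9.58 (0.51 ± 0.17), and Notch2 lay the other way (-0.32). Jag1 differed by 0.35 and overlapped. Hes1, a target of the pathway, was at 8.76, 8.13 and 8.24 against 7.94, 7.86 and 8.03, and Notch3 differed by 0.02. Hes1 was under the mark on basal X722_07_H and on all suprabasal arrays.

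Nuclear envelope genes, the subject of the series title, hardly separated the layers. Of 21 measured genes 1 was higher and 0 lower on all basal arrays, with a median of 0.06, which is within the shares of 8.08% and 4.27% over all clusters. Lmna, the gene of lamin A and C, was at 10.98, 10.93 and 10.71 on the basal and 10.78, 10.82 and 10.79 on the suprabasal arrays, a difference of 0.08 ± 0.0979 (SE; limma adjusted p = 0.894). The sources used here do not give whether its probes also read a transgene. Lmnb1, lamin B1, was the non-overlapping gene, at 8.32, 8.27 and 8.19 against 7.69, 8.08 and 7.76 (0.42 ± 0.184). It passed the mark only on X667_05_H and X667_05_L, and is thus among the 13 of 21 list genes above background in neither layer. The linker proteins Sun1 and Sun2 differed by 0.08 and -0.02, the lamin B receptor Lbr by 0.23, the lamina-associated Tmpo by 0.16, and the pore proteins Nup98 and Nup153 by 0.11 and 0.08.

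Spindle orientation genes overlapped in 17 of 21 cases (3 higher and 1 lower on all basal arrays, median 0.03). Gnai1, a G protein subunit that anchors the spindle machinery to the cortex, was at 9.95, 9.74 and 9.50 against 7.80, 9.50 and 9.22, where suprabasal X667_05_L equalled basal X722_07_H. Gpsm2, the adaptor between it and Numa1, was at 8.84, 9.13 and 8.67 against 8.64, 8.84 and 8.89, a difference of 0.09 ± 0.15 (SE; limma adjusted p = 0.925). Numa1 differed by 0.12, the polarity proteins Scrib and Pard6g by 0.19 and 0.33, and the dynein heavy chain Dync1h1 by -0.19.

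Among the stress lists, the immediate-early genes held the most differences without overlap. Of 15 p53 and senescence genes 1 was higher on all basal arrays: Trp53 itself, at 10.33, 10.15 and 10.21 against 9.49, 9.94 and 9.78 (0.49 ± 0.116, limma adjusted p = 0.605), whereas its targets Cdkn1a, Bax and Perp overlapped at -0.21, -0.08 and 0.08. Of 15 immediate-early genes 6 were higher and 1 lower (median 0.35), with Atf3 and Fos at 0.66 and 0.45 without overlap, Fosb at 0.46 with overlap, and Egr2 at -0.48. The lowest basal array for Fos was only 0.06 above the highest suprabasal one. The list's mean was 9.57 on basal X721_05_H, 9.10 on X667_05_H and 9.22 on X722_07_H. Without basal X721_05_H the list's median was 0.17. Of 11 stress and alarmin genes 0 were free of overlap (median -0.06): Krt16, a keratin of stressed epidermis, differed by -0.12, Stfa1 by 0.20 and Il1rn by 0.37. Of 14 interferon genes 2 were higher and 1 lower (median 0.05), and none was above background in a layer.

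The same layers of wild-type mice were fitted in the same model and differed in 957 clusters (1.45%). Across 6415 clusters above background in a group, the bitransgenic and the wild-type layer differences correlated at 0.817 (Pearson, across clusters, which are not replicates), and 72.2% had the same sign. Of the 957 called in wild type 754 (78.8%) had the same sign in bitransgenic arrays, as had 135 (87.1%) of the 155 that were above background in a group. These clusters were chosen for their wild-type difference, so the sizes in the genotypes are not compared over them. With the code as a fixed block no wild-type cluster was called (smallest adjusted p 0.0651), whereas a random block called 3600. The fixed block fits a term for each code, which leaves less to estimate the spread from. Leaving out basal X721_08_H or X721_05_H also ended every wild-type call, and so did leaving out suprabasal X682_11_L or X721_08_L. The test of the difference between the genotypes, the interaction, called 0 clusters (0.0%), with 6734 at an unadjusted p under 0.05 and a smallest adjusted p of 0.393. No layer difference can therefore be called particular to the bitransgenic mice.

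**Figure D4:**
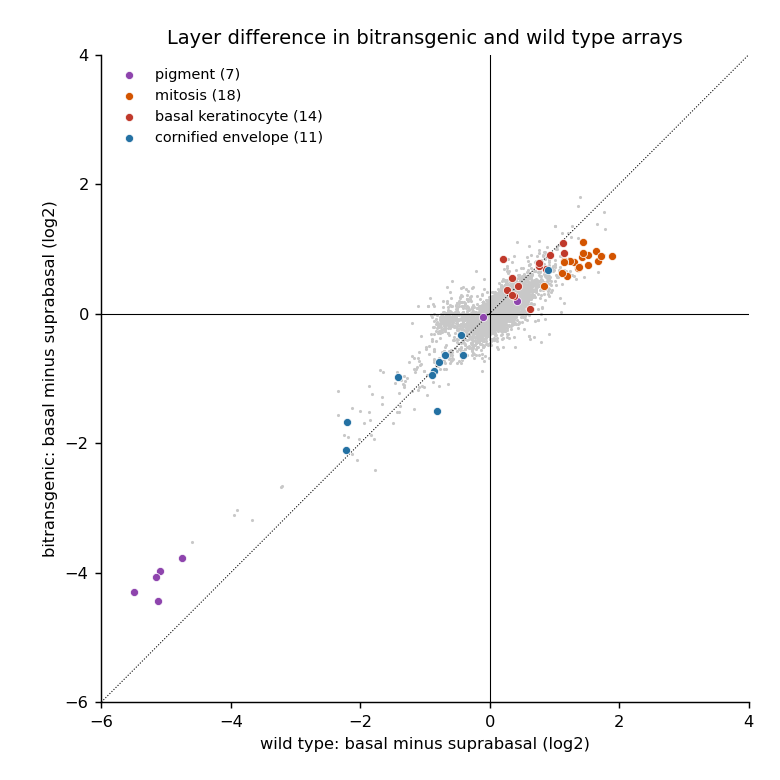
Basal minus suprabasal log2 difference in wild-type (horizontal axis) and in bitransgenic arrays (vertical axis) for 6415 clusters above background in at least 1 of the 4 groups. Coloured points are members of 4 gene lists with the number drawn, and the dotted line marks equal differences. The mitosis genes lie below the line, to the right of 0 on both axes.

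Mitosis genes had the smaller layer difference in bitransgenic arrays in 33 of 33 cases, with medians of 0.80 and 1.39 in wild type, where the share over all clusters was 64.2%. With 1 bitransgenic array left out, the bitransgenic median ran from 0.52 (without suprabasal X721_05_L) to 1.05 (without suprabasal X667_05_L). The smaller bitransgenic difference was not particular to the mitosis list. It was found in 27 of 29 replication and 12 of 12 lower follicle genes, but in 11 of 25 cornified envelope and 7 of 14 early differentiation genes. Mki67 differed by 0.58 in bitransgenic and 1.19 in wild-type arrays. Gpsm2, called in wild type (0.80, limma adjusted p = 0.0409), differed by 0.09 in bitransgenic arrays, and the interaction had an unadjusted limma p of 0.00665 that did not pass over all clusters. Dct was at -5.49 in wild type (limma adjusted p = 0.0348; like that of Gpsm2, this call was lost with the fixed code block) and -4.30 in bitransgenic arrays, Vim at -3.23 and -2.68, Klk7 at -2.22 and -2.11, and Itga3 at 1.14 and 1.08. Among the 5 smallest interaction p-values each way were Mplkip, at -0.18 in bitransgenic and 0.51 in wild-type arrays, and Lrtm2, at 0.22 and -0.20, both under the background mark on all bitransgenic arrays.

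The number of calls rested on the arrays of code X667_05. Without suprabasal X667_05_L, limma called 126 clusters (0.191%), 10 with more basal and 116 with more suprabasal signal, against 0 with all arrays. Of the 126, 59 were above background in the brighter layer on all the arrays kept (2 where that layer was suprabasal), and 58 of these had more suprabasal signal. They held 7 of the 12 genes of the pigment list, 5 of the 7 of the melanocyte regulator list and 0 of the mitosis list. Ube2s and Cdc25b, named above for mitotic exit and entry, are not on the mitosis list and were called. Dct was then at -5.47 (limma adjusted p = 0.0207) and Vim at -3.62 (limma adjusted p = 0.0240). Over all alternatives the adjusted p of Dct ran from 0.0207 to 0.983 and that of Vim from 0.0240 to 0.983, and leaving out this array was the 1 alternative that called them. Mcoln3, an endolysosomal channel, Gpnmb, a melanosomal glycoprotein, and Slc7a8, an amino acid carrier, are named here after their values were seen: they were on no list and differed by -4.85, -4.35 and -4.24. All 3 were under the background mark on suprabasal X667_05_L. Among the 10 with more basal signal, Ube2s was the 1 above background, and Wnt10a, Cdc25b and Stk33 were also called.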

How the data were processed

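Keratinocyte RNA of 12 samples, 3 in each of 4 groups named in the sample titles, was measured on Affymetrix MTA-1_0 arrays. The values the authors deposited are log2 signals, 1 for each transcript cluster; the submitters' processing notes name Affymetrix Expression Console, RMA and mm10. RMA equalises the distributions of the arrays, so a shift of most genes at once can be lost. The authors' deposited table also gives, for this comparison, signed fold values (a score with no value between -1 and 1), p-values and q-values, per the file headers. Arrays have no read depth, and their number limits the precision.

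Controls (6732 of 72688 probe sets) were left out, and all other 65956 clusters were tested. The platform annotation named 1 gene for 30638 clusters and several for 2176, which stay unnamed; a further 716 took the symbol of the deposited file, and 32426 had none. A gene with several clusters was represented by its brightest cluster on average (30765 genes). Of 437 genes on 28 lists, 413 were measured alone. A single limma model with 4 group means, fitted to the 12 arrays, gave all contrasts, with empirical Bayes moderation; p-values were adjusted by Benjamini-Hochberg over every cluster, with a threshold of 0.05. The fit was tested on simulated data.

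Genes were named by rule: the 12 largest differences each way among genes above background whose layers did not overlap (without predicted, small RNA, receptor-family and ribosomal models), up to 4 members per list, the 5 smallest p-values each way for the layer and the interaction contrast, the widest ranges within a layer (8 suprabasal, 5 basal) and 26 fixed genes. Other genes, among them Xist, Sox10, Kit, Mitf, Ednrb, Tyr and Mlana, were added by hand for context. Further list members, such as Pax3, Mc1r, Slc45a2, Slc24a5, Lama3, Lamb3 and Dst, are also given outside these rules. Only some of these genes are marked in the text. Promoters were taken for up to 3 genes of 2 lists. Members, lists and rules were chosen with earlier results of these data known. The codes were taken to pair the samples only in the block alternatives, from the data, as the labels do not state it. Deviations from the group mean correlated between layers at 0.136 and 0.241 within bitransgenic codes. Within wild-type codes they correlated at 0.269, 0.533 and 0.37, and between different codes at a median of -0.066. Single pairs of different codes were as high, such as basal X722_07_H with suprabasal X721_05_L (0.189) and the suprabasal arrays X721_08_L and X721_05_L (0.485). These values thus do not single out the pairs with the same code. Alternatives were centring arrays, cyclic loess, a filter on dim clusters, the bitransgenic arrays alone, trend and robust moderation, array weights, code blocks, the unpaired test of the series design, and each array left out. Python 3.11.15 with matplotlib 3.10.9, pandas 2.3.3 and numpy 2.4.6 was used beside R 4.3.3 with limma 3.58.1.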

Additional observations from a re-analysis of the deposited data

How the results depend on the processing

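The count of 0 calls between the bitransgenic layers held under centring, cyclic loess, array weights (smallest adjusted p 0.130), trend and robust moderation, the filter on dim clusters, the 6 bitransgenic arrays alone and the unpaired test. With the code as a replicate block it was 0 as well, as a random block (smallest adjusted p 0.457) and as a fixed block (0.660). The fixed block draws this contrast only from X721_05 and X667_05, the codes with both layers. It therefore cannot show that pairing makes no difference. Leaving out 1 array at a time gave 0 to 126 calls: 126 without suprabasal X667_05_L, 1 without basal X667_05_H and 0 without any other. The interaction stayed at 0 calls under all alternatives run. The wild-type count was 957, and it was 342 with centred arrays, 262 with cyclic loess, 179 over clusters above background, 476 with trend and robust moderation, 1860 with array weights, 3600 with the random and 0 with the fixed code block, and 0 to 2903 with 1 array left out (9 without bitransgenic X682_05_L, and 0 without bitransgenic X721_05_H or without wild-type X682_11_L, X721_08_L or X721_08_H). The alternatives for the wild-type count, and those for the interaction other than centring and the random block, were chosen after seeing the data.

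Of 2621 values of the 126 named genes under alternatives, 2596 kept their direction. The other 25 belong to 12 genes whose difference was at most 0.56 in size. With 1 array left out, Akr1b8 ran from -0.18 to 1.13, Bax from -0.21 to 0.07, Bcl2l14 from -0.01 to 0.01, Csta3 from -0.57 to 0.70, Gpsm2 from -0.04 to 0.19, Lef1 from -0.22 to 0.04, Notch3 from -0.07 to 0.11, Ptch1 from -0.21 to 0.03, Stfa1 from -0.05 to 0.38 and Sun2 from -0.09 to 0.10. With the fixed code block, Bax was at 0.16, Cd209g was at -0.02, Lef1 was at 0.16 and Ptch1 was at 0.03. With array weights, Csta3 was at -0.47, Eri1 was at 0.01 and Sun2 was at 0.09. With cyclic loess, Notch3 was at -0.01. The medians of 9 lists, each between -0.09 and 0.03 in the fit reported, also turned. With 1 array left out, the median of wnt ran from -0.08 to 0.04, p53 senescence from -0.04 to 0.06, stress alarmin from -0.25 to 0.25, merkel from -0.10 to 0.01, langerhans immune from -0.01 to 0.05, schwann from -0.05 to 0.01 and erythroid from -0.10 to 0.01. Over members above background, lower follicle was at 0.02, wnt was at 0.25 and stress alarmin was at 0.20. With cyclic loess, p53 senescence was at -0.02 and endothelial was at -0.01. The cause of these changes was not tested. Signal under the background mark limits every gene for which a bound is given, and every list member above background in neither layer.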
